A study of Equus caballus with 23 samples.

Results

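The pyruvate dehydrogenase complex was examined through the genes of its subunits and of the enzymes that switch it on and off: PDHA1, PDHB, PDHX, DLAT, DLD, the kinases PDK2 and PDK3, and the phosphatase PDP1. The genes were chosen by name, with PDK4 left out, and each of the 8 symbols was paired with 1 Ensembl identifier in the authors' tables, out of 26991 genes in the count table. All 8 passed the filter on low counts, which kept 11545 genes for testing. RNA was sequenced from Arabian horses, using needle biopsies of a hip muscle, the gluteus medius. The 5 libraries of T0 (3 male, 2 female) came from untrained animals at 2.5 years of age. The 8 libraries of T1 (4 male, 4 female) came from 3-year-olds that had completed a phase of intense gallop ahead of the flat racing season, and the 10 libraries of T2 (7 male, 3 female) from 3-year-olds when that season had ended. Age differs between T0 and the other time points, so age and training status cannot be told apart in comparisons with T0. Whether any horse gave more than 1 biopsy is not in the labels, so p-values here reflect only how much these libraries vary.

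The pyruvate dehydrogenase complex sits in the mitochondrial matrix and converts pyruvate, the end product of glycolysis, to acetyl-CoA for the tricarboxylic acid cycle. It is built from a pyruvate-oxidizing component with alpha and beta subunits, an acetyl-transferring core with a binding protein, and a dehydrogenase that regenerates the lipoyl arms of the core. Pyruvate dehydrogenase kinases phosphorylate the alpha subunit and stop the complex, and pyruvate dehydrogenase phosphatases restart it, so that muscle shifts between carbohydrate and fat as fuel. Transcript levels do not report the phosphorylation or the activity of the complex.

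Libraries held 12185608 to 23641809 counts, and the 8 genes had between 111 and 13103 counts in a library. The values below are CPM, read counts scaled to a common library size after TMM, where TMM is edgeR's scaling for the make-up of a library. They are not divided by transcript length and are compared between libraries, not between genes. The TMM factors ran from 0.75 to 1.45 in T0, 0.66 to 1.07 in T1 and 0.80 to 1.22 in T2, so the levels depend on this scaling. The share of counts from the mitochondrial genome was 36.0% to 54.9% in T0, 44.7% to 56.7% in T1 and 42.5% to 52.3% in T2, and T0 library m12 had the highest share in T0 and the smallest scaled library size. The 10 skeletal muscle markers were detected in every library, with a summed level of 46269 to 118708 CPM. A slow minus fast fibre score, the mean log2 CPM of 15 slow fibre contractile genes minus that of 13 fast fibre identifiers, spanned -5.18 to -3.37 across the T0 libraries, -2.19 to 4.09 across those of T1 and -4.66 to -2.34 across those of T2, so T1 did not overlap either other time point. T1 library m3 (4.09) and, less so, m11 (0.60) stood above the other T1 libraries in this score. In bulk tissue, a different number of cells of a type and a different amount of RNA per cell cannot be told apart.

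Between T0 and T1, 3 of the 8 genes rose and 0 fell: PDHA1, PDK2 and PDK3. Of all tested genes, 3.57% rose and 3.34% fell, and the median log2 fold change was 0.39 over the 8 genes against -0.02 over all genes tested. The other 5 genes had log2 fold changes between 0.19 and 0.46 and missed the threshold. Between T1 and T2, 2 genes fell and 0 rose, the kinases PDK2 and PDK3, where 15.1% of all tested genes fell and 12.6% rose. The median log2 fold change was -0.16 over the 8 genes and -0.01 over all genes. Between T0 and T2, 1 gene rose, PDHB, and 0 fell, where 6.73% of all tested genes rose and 9.30% fell. The medians were 0.14 over the 8 genes and -0.03 over all genes. Calls rest on edgeR's quasi-likelihood test with a Benjamini-Hochberg adjusted p below 0.05 over all genes. The comparisons share libraries, so a rise into T1 and a fall out of T1 are not independent of each other.

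**Figure D1:**
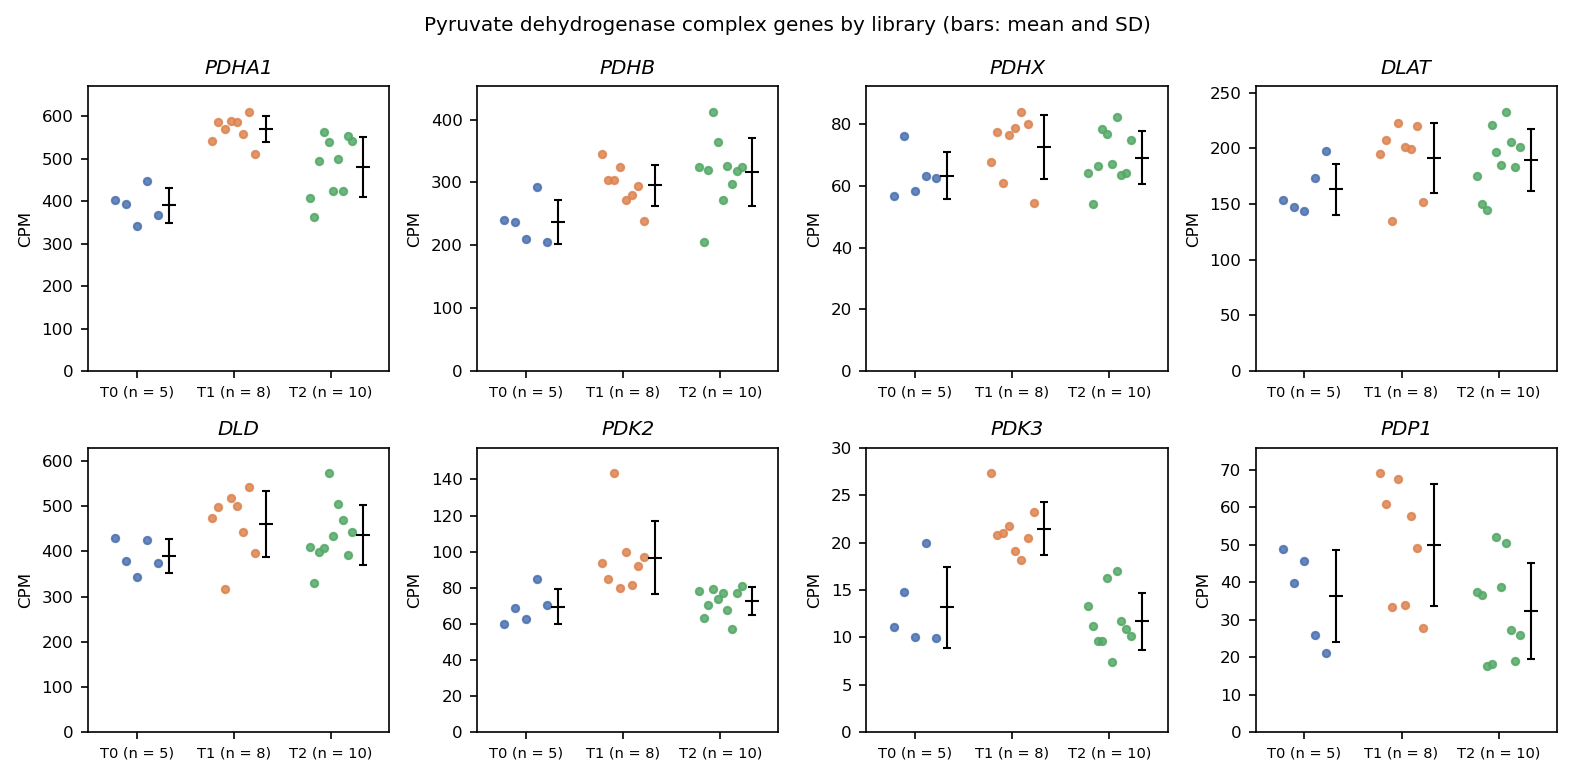
CPM (vertical axis, starting at 0) of each of the 8 genes in every library, grouped by time point (horizontal axis); each point is a library and the black bars give the mean and SD. PDHA1 is higher in all 8 T1 libraries (512 to 611 CPM) than in all 5 T0 libraries (341 to 448 CPM), and PDK3 is higher in all T1 libraries (18.2 to 27.3 CPM) than in all T2 libraries (7.41 to 16.99 CPM).

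PDHA1 encodes the alpha subunit of the pyruvate-oxidizing component, which carries the serines that the kinases phosphorylate (ENSECAG00000001964, chromosome X, 14232093 to 14246514). All coordinates are those of the authors' tables, and the sources used here do not name their genome build. In T0 the libraries m8, m9, m10, m12 and m13 had 403, 393, 341, 448 and 367 CPM. The T1 libraries ran from 512 to 611 CPM with a median of 579, and the T2 libraries from 362 to 563 CPM with a median of 497. Every T1 library lay above every T0 library, which held for 2.98% of all tested genes in either direction. This separation holds after TMM scaling and not before it. T0 library m8 had 9830 PDHA1 counts among 17477172, and T1 library m1 had 9593 among 21929831, a smaller share. PDHA1 rose from a mean of 390.2 ± 40.4 CPM (SD, n = 5) to one of 570.0 ± 31.2 CPM (SD, n = 8) in T1, which is a log2 fold change of 0.55 ± 0.13 (SE, edgeR adjusted p = 0.00972), or 46.1% higher. The call was kept in all 23 fits that left out 1 library. In T2 it had 481 ± 71.1 CPM (SD, n = 10), and 6 of the 10 T2 libraries lay below the lowest T1 library. The log2 fold change from T1 to T2 was -0.24 ± 0.10 and did not pass (adjusted p = 0.0754), while DESeq2 (adjusted p = 0.0215), limma voom with sample weights (0.0235), 1 surrogate variable (0.0211) and a fit without libraries m3 and m12 (0.0463) gave a call. From T0 to T2 it was 0.30 ± 0.12 (adjusted p = 0.0805), which passed without T0 library m12 (0.36, adjusted p = 0.0447) or T2 library m15 (0.34, adjusted p = 0.0377). It also passed in DESeq2 (adjusted p = 0.0137), limma voom with sample weights (0.0164) and the fit without libraries m3 and m12 (0.0243). T1 was the tightest group for this gene, with a coefficient of variation of 5.47% against 10.3% in T0 and 14.8% in T2.

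PDHB encodes the beta subunit, which forms the catalytic tetramer with the alpha subunit (ENSECAG00000005244, chromosome 16, 30082385 to 30198098). The T0 libraries m8, m9, m10, m12 and m13 had 239.6, 236, 209.7, 293 and 205 CPM. T1 ran from 238 to 346 CPM with a median of 299, and T2 from 205 to 412 CPM with a median of 322. The groups overlapped, with m12 as the high T0 library and m15 as the low T2 library. From T0 (237 ± 34.9 CPM, SD, n = 5) to T1 (295 ± 32.98 CPM, SD, n = 8) the log2 fold change was 0.32 ± 0.14 (SE) and did not pass (edgeR adjusted p = 0.172). Limma voom with sample weights gave a log2 fold change of 0.36, which passed (adjusted p = 0.0391). Between T1 and T2 (316 ± 54.4 CPM, SD, n = 10) it was 0.10 ± 0.12 (adjusted p = 0.549). From T0 to T2 PDHB rose by 0.42 ± 0.14 (adjusted p = 0.0367), with 8 of the 10 T2 libraries above the highest T0 library. This call ended in a fit of T0 and T2 alone (adjusted p = 0.0587) and without T0 library m8, m9, m10 or m13 or T2 library m16, m17, m18 or m22, where the adjusted p was 0.0514 to 0.102 and the log2 fold change 0.37 to 0.44. The annotated span of PDHB also covers or meets PXK, RPP14 and ABHD6, which had mean counts of 108, 41.4 and 23.9 per library against 5005 for PDHB. The kit named in the labels does not mark strand, so reads in shared exons could not be assigned by strand.

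None of the genes of the transferase core, its binding protein and the dehydrogenase passed in any comparison of time points. DLAT encodes the dihydrolipoamide acetyltransferase that forms the core (ENSECAG00000021375, chromosome 7, 20554909 to 20594278). Its T0 libraries m8, m9, m10, m12 and m13 had 154, 147, 143, 174 and 198 CPM. T1 ran from 135 (m3) to 222 (m4) CPM with a median of 200.3, and T2 from 144 to 233 CPM with a median of 191. The 3 groups overlapped widely, and the lowest of all DLAT values belonged to T1 library m3. The log2 fold change was 0.23 ± 0.14 from T0 to T1 (SE, edgeR adjusted p = 0.352), -0.02 ± 0.12 from T1 to T2 (adjusted p = 0.939) and 0.22 ± 0.13 from T0 to T2 (adjusted p = 0.268). With sample weights in limma voom the T1 value was 0.37 (adjusted p = 0.0398).

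PDHX encodes the binding protein that anchors the dehydrogenase to the core (ENSECAG00000008611, chromosome 12, 1647679 to 1712472). The T0 libraries m8, m9, m10, m12 and m13 had 56.8, 76.1, 58.2, 63.1 and 62.5 CPM, T1 ran from 54.4 to 84.0 CPM with a median of 76.9, and T2 from 54.2 to 82.3 CPM with a median of 66.7. The groups overlapped, with T1 library m11 and T2 library m15 lowest in their time points. The log2 fold change was 0.19 ± 0.12 from T0 to T1 (SE, edgeR adjusted p = 0.364), -0.07 ± 0.10 from T1 to T2 (adjusted p = 0.637) and 0.13 ± 0.11 from T0 to T2 (adjusted p = 0.465).

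DLD encodes dihydrolipoamide dehydrogenase, a flavoprotein shared with the oxoglutarate and branched-chain oxo acid dehydrogenases and the glycine cleavage system (ENSECAG00000000749, chromosome 4, 7821101 to 7848289). The T0 libraries m8, m9, m10, m12 and m13 had 429.9, 378, 343, 425 and 375 CPM, T1 ran from 318 (m3) to 542 (m7) CPM with a median of 487, and T2 from 330.2 to 573 CPM with a median of 422. As for DLAT, T1 library m3 was the lowest of all libraries. The log2 fold change was 0.24 ± 0.14 from T0 to T1 (SE, edgeR adjusted p = 0.33), -0.08 ± 0.12 from T1 to T2 (adjusted p = 0.638) and 0.16 ± 0.13 from T0 to T2 (adjusted p = 0.423). In limma voom with sample weights the T1 value passed (0.35, adjusted p = 0.0495).

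**Figure D2:**
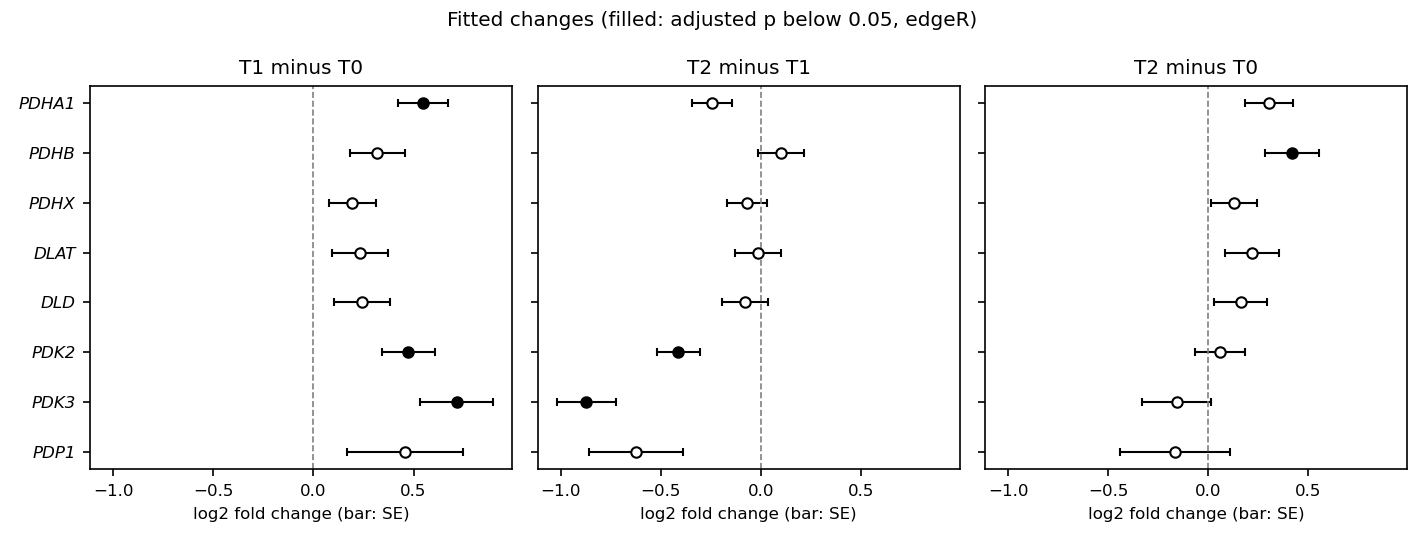
Log2 fold change (horizontal axis) of each gene with its standard error (bar) in the 3 comparisons of time points; filled points have an edgeR adjusted p below 0.05. PDHA1 (0.55), PDK2 (0.47) and PDK3 (0.71) are filled for T1 minus T0, PDK2 (-0.41) and PDK3 (-0.87) for T2 minus T1, and PDHB (0.42) for T2 minus T0.

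Both kinase genes rose into T1 and fell into T2, and PDK3 had the largest log2 fold changes of the 8 genes in these comparisons. PDK3 encodes a pyruvate dehydrogenase kinase that is less sensitive to inhibition by pyruvate than its relatives (ENSECAG00000010080, chromosome X, 18629896 to 18689705). Its T0 libraries m8, m9, m10, m12 and m13 had 11.1, 14.8, 10.1, 19.9 and 9.90 CPM. The T1 libraries ran from 18.2 to 27.3 CPM with a median of 20.9, and the T2 libraries from 7.41 to 16.99 CPM with a median of 11.02. Of the 8 T1 libraries, 6 lay above the highest T0 library, m12, and all 8 lay above every T2 library. Groups without overlap were found for 2.23% of all genes in T2 against T1. For PDK3 too the separation of T1 from T2 holds only after TMM scaling. T2 library m20 had 284 PDK3 counts among 16005956, and T1 library m3 had 240 among 17293878, a smaller share. PDK3 rose from a mean of 13.2 ± 4.26 CPM (SD, n = 5) to one of 21.5 ± 2.80 CPM (SD, n = 8) in T1, which is a log2 fold change of 0.71 ± 0.18 (SE, edgeR adjusted p = 0.0186). Without T0 library m12 the value was 0.91 (adjusted p = 0.00366), and the call ended without T0 library m10 (0.64, adjusted p = 0.0683) or m13 (0.63, adjusted p = 0.0559). T2 had a mean of 11.7 ± 3.02 CPM (SD, n = 10), a log2 fold change from T1 of -0.87 ± 0.15 (edgeR adjusted p = 0.000187), so PDK3 fell by 45.4%. That fall passed in all 35 alternatives, with a value of -0.95 to -0.81 over the fits that left out 1 library. T2 and T0 gave a log2 fold change of -0.16 ± 0.17 (adjusted p = 0.554), whose sign turned without m12 (0.03, adjusted p = 0.905).

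PDK2 encodes the kinase isoform found in most tissues, muscle among them (ENSECAG00000022822, chromosome 11, 25828968 to 25844025). The T0 libraries m8, m9, m10, m12 and m13 had 60.2, 68.9, 63.0, 85.1 and 70.7 CPM. T1 ran from 79.9 (m4) to 143 (m3) CPM with a median of 92.7, and T2 from 57.1 to 80.9 CPM with a median of 75.5. T1 library m3 stood far above the next T1 library, m5 (100.1 CPM), and 9 of the 10 T2 libraries lay below the lowest T1 library. PDK2 rose from a mean of 69.6 ± 9.69 CPM (SD, n = 5) to one of 96.6 ± 20.2 CPM (SD, n = 8) in T1, with a log2 difference of 0.47 ± 0.13 (SE, edgeR adjusted p = 0.0289). The call ended without T0 library m8 (adjusted p = 0.0645), m9 (0.055), m10 (0.0803) or m13 (0.0514) and in a fit of T0 and T1 alone (0.0771), with log2 fold changes of 0.43, 0.47, 0.45, 0.48 and 0.47. T2 had a mean of 72.5 ± 7.79 CPM (SD, n = 10), a log2 fold change from T1 of -0.41 ± 0.11 (edgeR adjusted p = 0.00588), so PDK2 fell by 24.9%. Without T1 library m3 the fall was -0.31 (adjusted p = 0.00852) and the rise from T0 was 0.38 (adjusted p = 0.0323). The value from T0 to T2 was 0.06 ± 0.12 (adjusted p = 0.767). The span of FAM117A overlaps that of PDK2 and had a mean count of 74.1 per library against 1375 for PDK2.

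PDP1 encodes the calcium-stimulated catalytic phosphatase that reactivates the complex in contracting muscle (ENSECAG00000016359, chromosome 9, 40437004 to 40443049). The T0 libraries m8, m9, m10, m12 and m13 had 48.9, 39.8, 45.8, 26.0 and 21.1 CPM, T1 ran from 27.8 to 69.1 CPM with a median of 53.4, and T2 from 17.6 to 52.0 CPM with a median of 31.9. PDP1 was the most variable of the 8 genes in each time point, with a coefficient of variation of 33.6% in T0, 32.8% in T1 and 39.4% in T2, and the groups overlapped. The log2 fold change was 0.46 ± 0.29 from T0 to T1 (SE, edgeR adjusted p = 0.384) and -0.17 ± 0.27 from T0 to T2 (adjusted p = 0.707). T1 had a mean of 49.9 ± 16.4 CPM (SD, n = 8) and T2 one of 32.4 ± 12.8 CPM (SD, n = 10), a log2 fold change of -0.62 ± 0.24, just short of the threshold (adjusted p = 0.0518). It passed in 12 of 35 alternatives, among them DESeq2 (-0.62, adjusted p = 0.0328), limma voom with sample weights (-0.73, adjusted p = 0.0158), 1 surrogate variable (-0.53, adjusted p = 0.0376), and the fits without T1 library m3, m5 or m11, T0 library m13 or T2 library m18 or m20 (adjusted p = 0.0265 to 0.0465).

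The authors' deposited tables give DESeq2 results for the same genes. At an adjusted p below 0.05, the authors' deposited table for T1 against T0 has 4 of the 8 genes higher, PDHB (log2 fold change 0.30, adjusted p = 0.0494) in addition to PDHA1, PDK2 and PDK3. The authors' deposited table for T2 against T1 has 4 genes lower, with PDHA1 (-0.25, adjusted p = 0.0146) and PDP1 (-0.56, adjusted p = 0.0197) in addition to PDK2 and PDK3. The authors' deposited table for T2 against T0 has 1 gene higher, PDHB (0.38, adjusted p = 0.0192). The share of all genes called by the authors is not given here, so these member counts stand without a background. DESeq2 run here called 1152 genes from T0 to T1, 3511 from T1 to T2 and 2319 from T0 to T2. The main edgeR fit called 798, 3188 and 1851.

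Ratios between partner genes within a library do not depend on how libraries are scaled. The alpha and beta subunit genes, whose products pair in equal numbers, changed relative to each other between T1 and T2. The log2 ratio of PDHA1 over PDHB averaged 0.73 ± 0.08 (SD, n = 5) at T0, then 0.95 ± 0.15 (SD, n = 8) at T1 and 0.61 ± 0.15 (SD, n = 10) at T2. T0 ran from 0.61 to 0.84, T1 from 0.65 to 1.11 and T2 from 0.33 to 0.82. In T1, 7 of the 8 libraries lay above the highest T2 library, and the exception was m1. The difference between T2 and T1 was -0.34, or 0.788-fold (exact two-sided permutation p = 0.000457, adjusted p = 0.00686 over 15 tests of ratios). It passed in all 23 runs that left out 1 library, with a difference of -0.39 to -0.31 and an adjusted p of 0.00154 to 0.0154. T1 exceeded T0 by 0.23, short of the threshold (exact permutation p = 0.0155, adjusted p = 0.117) except without T1 library m1 (adjusted p = 0.0189). T2 and T0 differed by -0.12 (exact permutation p = 0.135, adjusted p = 0.504).

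The other ratios showed no difference that passed. The log2 ratio of PDHX over DLAT, the binding protein over the core enzyme, averaged -1.36 ± 0.26 (SD, n = 5) at T0, then -1.39 ± 0.14 (SD, n = 8) at T1 and -1.45 ± 0.14 (SD, n = 10) at T2. For DLD over DLAT the means were 1.26 ± 0.21, 1.27 ± 0.07 and 1.20 ± 0.19 in the same order. The kinase over phosphatase ratio, PDK2 over PDP1, was 0.999 ± 0.68, 1.003 ± 0.71 and 1.26 ± 0.63, and it spread over more than a log2 unit within every time point. The ratio of PDK2 over its substrate gene PDHA1 was -2.49 ± 0.15, -2.58 ± 0.29 and -2.72 ± 0.19, and its lowest p was for T2 against T0, a difference of -0.23 (exact permutation p = 0.032, adjusted p = 0.16). For that ratio 7 of the 10 T2 libraries lay below the lowest T0 library. The smallest exact p that 8 against 5 libraries can give is 0.00155.

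**Figure D3:**
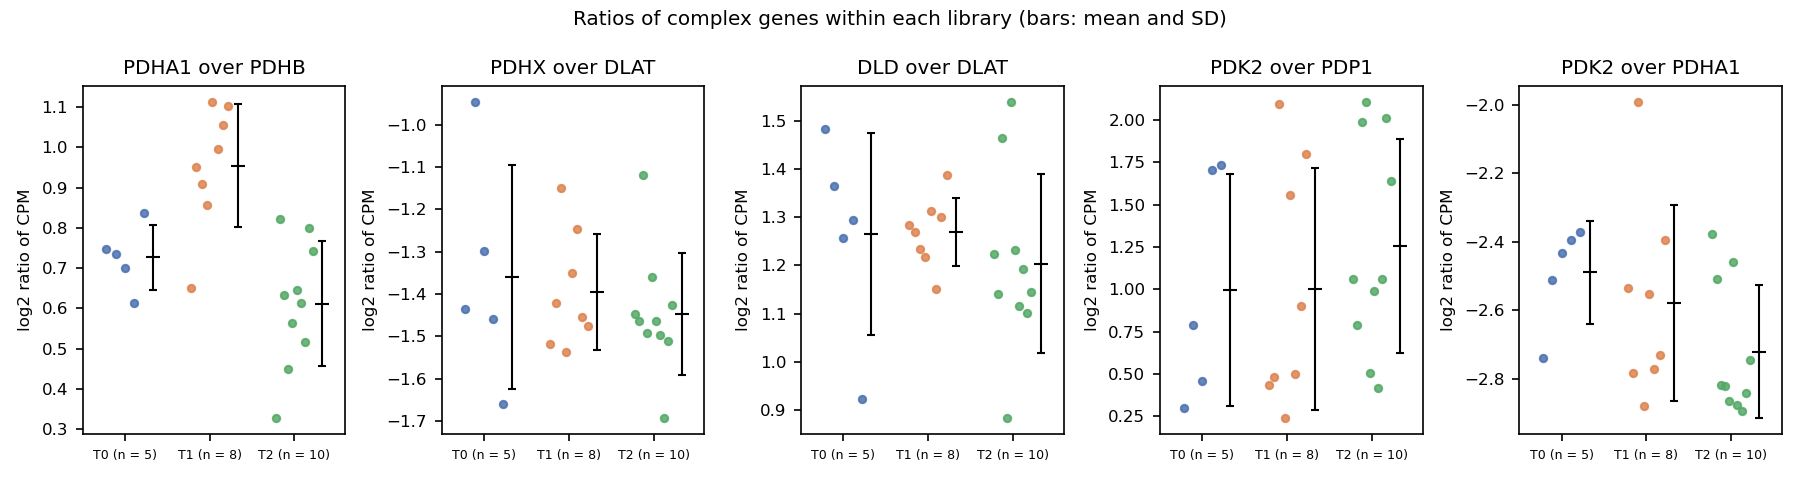
Log2 ratio of CPM (vertical axis, not starting at 0 and scaled separately in each panel) for 5 pairs of genes in each library, grouped by time point; points are libraries and black bars the mean and SD. In the panel of PDHA1 over PDHB, T1 averages 0.95 and T2 averages 0.61, with 7 of 8 T1 libraries above all T2 libraries. In the panel of PDK2 over PDHA1, 7 of 10 T2 libraries lie below all T0 libraries. The groups of the remaining panels overlap widely.

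Within time points, 5 of 28 pairs of genes had a Pearson correlation that passed, all of them pairs of structural genes. The share of all gene pairs that would pass is not given here, so this count stands without a background. The count is therefore not shown to be particular to the genes of the complex. Correlations were taken over the 23 libraries after removing the mean of each time point, with permutation within time points. These points share the scaling and depth of each library. PDHA1 and PDHB had Pearson r = 0.77 (permutation p = 4e-05, adjusted p = 0.00112) and Spearman rho = 0.61 (permutation p = 0.0036, adjusted p = 0.0504), and r was 0.73 without the 2 libraries farthest from the median. DLAT and DLD had r = 0.74 (adjusted p = 0.0042) and rho = 0.65 (adjusted p = 0.0451), from permutation p values of 0.0003 and 0.00161, with r = 0.66 without 2 libraries. PDHX and DLAT had r = 0.68 (permutation p = 0.00149, adjusted p = 0.0139) and rho = 0.59 (permutation p = 0.00565, adjusted p = 0.0527), with r = 0.57 without 2 libraries. PDHX and DLD had r = 0.62 (permutation p = 0.0035, adjusted p = 0.0196) and rho = 0.56 (permutation p = 0.00893, adjusted p = 0.0545), with r = 0.51 without 2 libraries. PDHA1 and PDHX had r = 0.58 (permutation p = 0.00215, adjusted p = 0.015) and rho = 0.51 (permutation p = 0.0155, adjusted p = 0.0725), with r = 0.46 without 2 libraries. These 5 pairs had an adjusted p below 0.05 for Pearson's r, and only DLAT with DLD did so for both measures. No pair with a kinase or the phosphatase passed. The 2 kinases had r = 0.11 (permutation p = 0.589, adjusted p = 0.635) and rho = 0.02 (permutation p = 0.922, adjusted p = 0.922), with r = 0.19 without 2 libraries, although both rose into T1 and fell out of it. PDK2 and PDP1, the opposing enzymes, had r = -0.46 (permutation p = 0.0277, adjusted p = 0.108) and rho = -0.43 (permutation p = 0.0459, adjusted p = 0.161), with r = -0.52 without 2 libraries.

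The fibre score moved with several of these genes inside T1. Over the 8 T1 libraries, DLAT had Pearson r = -0.94 with the slow minus fast score (exact permutation p = 0.00141, adjusted p = 0.0226 over 16 relations) and Spearman rho = -0.79 (exact permutation p = 0.0279, adjusted p = 0.307). DLD had r = -0.93 (exact permutation p = 0.00625, adjusted p = 0.0496) and rho = -0.67 (exact permutation p = 0.0831, adjusted p = 0.332). PDK2 went the other way, with r = 0.92 (exact permutation p = 0.0093, adjusted p = 0.0496) and rho = 0.74 (exact permutation p = 0.0458, adjusted p = 0.307). Without m3 and m11 the r was -0.62 for DLAT, -0.18 for DLD and 0.54 for PDK2 over 6 libraries, so these relations rest largely on those 2 libraries. Over the 10 T2 libraries the same genes had r = 0.18, 0.31 and -0.03 (permutation p = 0.616, 0.378 and 0.925, adjusted p = 0.82, 0.788 and 0.95) and rho = 0.32, 0.42 and -0.09 (permutation p = 0.37, 0.232 and 0.811, adjusted p = 0.591, 0.464 and 0.977). Without the 2 libraries farthest from the median score the T2 r was 0.59, 0.37 and -0.15. The other 13 relations did not pass. Among them, PDHX in T1 had r = -0.76 (exact permutation p = 0.0289, adjusted p = 0.116), and -0.78 without m3 and m11. PDK3 had r = 0.18 in T1 (exact permutation p = 0.621, adjusted p = 0.82) and 0.48 in T2 (permutation p = 0.163, adjusted p = 0.435). Without the 2 libraries farthest from the median score the PDK3 r was 0.74 in T1 and 0.83 in T2. The values without 2 libraries were not tested.

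**Figure D4:**
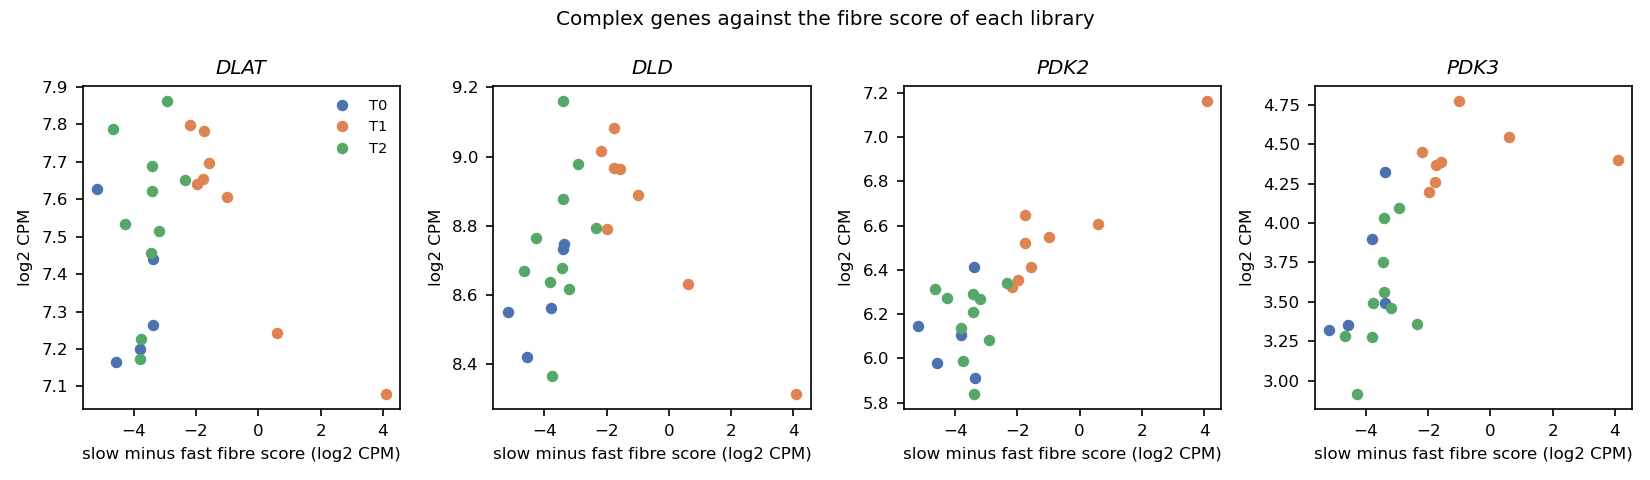
Log2 CPM (vertical axis, scaled separately and not starting at 0) of DLAT, DLD, PDK2 and PDK3 against the fibre score, slow minus fast (horizontal axis, log2 CPM), with 1 point per library coloured by time point. The T1 library m3, at a score of 4.09, has the lowest DLAT and DLD and the highest PDK2 of the 23 libraries.

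With the score as a covariate, none of the 3 rises from T0 to T1 passed: PDHA1 had a log2 fold change of 0.53 (edgeR adjusted p = 0.222), PDK3 0.50 (adjusted p = 0.461) and PDK2 0.12 (adjusted p = 0.785). That fit called 1 of the 11545 genes from T0 to T1, against 798 without the score, so the loss of the 3 calls is shared by nearly all genes and is no result about these members. From T1 to T2 PDK3 still fell, by 0.69 on the log2 scale (adjusted p = 0.0183), whereas PDK2 had -0.12 (adjusted p = 0.53), in a fit that called 2466 genes against 3188 without the score. The score does not overlap between T1 and the other time points, so the fibre mix and the time point cannot be told apart in this fit. Beside these values, 13 of 15 slow fibre genes rose and 5 of 13 fast fibre identifiers fell from T0 to T1, and 12 slow genes fell and 11 fast identifiers rose from T1 to T2. From T0 to T2, 1 slow gene rose and no fast identifier passed. Over all genes 3.57% rose and 3.34% fell from T0 to T1. The shares were 12.6% and 15.1% from T1 to T2, and 6.73% and 9.30% from T0 to T2.

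Markers of other cells were also summed in each library. These sums are compared between libraries, not with the muscle sum, because CPM are not divided by transcript length and the lists differ in size. The summed level of 5 of 6 fibroblast markers with an identifier was 89.5 to 382 CPM in T0, 64.5 to 164 in T1 and 80.8 to 283 in T2. For 5 of 6 smooth muscle and pericyte markers it was 97.2 to 359.6 CPM, with library m9 at the top, 57.7 to 116 and 71.8 to 167 CPM, and for 5 of 6 endothelial markers 183 to 269.7, 151 to 225 and 128 to 212 CPM. For 3 of 6 adipocyte markers it was 78.1 to 176, 114 to 323 and 120.2 to 275 CPM, for 3 of 6 macrophage markers 3.599 to 6.26, 3.10 to 6.83 and 3.19 to 6.25 CPM, and for 2 of 6 nerve and Schwann cell markers 7.20 to 10.3, 5.78 to 10.3 and 8.11 to 12.4 CPM. None of the markers with an identifier was at 0 in all libraries, and the neutrophil, lymphocyte and erythroid markers had no identifier under their symbols in the authors' tables. Their part in the changes of the complex genes was not tested.

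At the transcript level each gene was carried by 1 named transcript. PDHA1-201, PDHB-201, PDHX-201, DLAT-201, DLD-201, PDK2-201 and PDP1-201 are the only annotated transcripts of their genes. Their share of 100% in every library is therefore fixed by the annotation and says nothing about isoform use. PDK3, annotated with 2 transcripts, had 97.8% ± 2.97 of its counts on PDK3-201 at T0 (SD, n = 5), then 99.4% ± 1.83 (SD, n = 8) at T1 and 99.4% ± 1.80 (SD, n = 10) at T2. The transcript tests use nearly the same counts as the gene tests and add no separate support. At this level 3 of the 8 rose and 0 fell from T0 to T1, among 2.74% and 2.24% of all transcripts. From T1 to T2, 0 rose and 2 fell, among 11.2% and 12.7%, and from T0 to T2, 1 rose and 0 fell, among 5.55% and 6.82%. PDK3-201 rose by 0.73 ± 0.19 into T1 (SE, edgeR adjusted p = 0.0277 over 12334 transcripts) and had a log2 fold change of -0.87 ± 0.15 from T1 to T2 (adjusted p = 0.000398).

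No difference between males and females passed for any of the 8 genes in an additive model with time point. PDK2 had the lowest p, with a log2 difference of 0.21 ± 0.09 for male minus female (SE, edgeR p = 0.0315, adjusted p = 0.78), and it was the only one of the 8 with an unadjusted p below 0.05. No gene of all 11545 passed in this comparison. The interaction of sex with each comparison of time points gave no called gene among the 8, no unadjusted p below 0.05 and a lowest adjusted p of 0.998. T0 holds only 2 females, so these tests are weak.

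The genes whose log2 CPM followed each of the 8 most closely over the 23 libraries are given as a description, over libraries that share scaling, depth and time point. The search covered 6400 genes that had a symbol and reached log2 CPM 2 on average. PDHA1 was closest to SDHA, the flavoprotein of succinate dehydrogenase (r = 0.91), ME2, a mitochondrial malic enzyme (0.90), and AIFM1, a mitochondrial flavoprotein (0.89). PDHB was closest to the phosphate carrier SLC25A3 (0.94), the lipoic acid synthase LIAS (0.93) and the ATP synthase subunit ATP5A1 (0.92). PDHX was closest to NDUFS1 (0.82), DLST (0.79) and SDHA (0.74), DLAT to GOT2 (0.78), DLD (0.77) and DLST (0.73), and DLD to NDUFS1 (0.79), SOD2 (0.78) and DLAT (0.77). PDK2 was closest to MTCH1 (0.90), TMEM53 (0.88) and CYB5R1 (0.87). PDK3 was closest to ALDH3A2, a fatty aldehyde dehydrogenase (0.89), ETFDH, the electron transfer flavoprotein dehydrogenase (0.87), and VWA8 (0.87). PDP1 was closest to the potassium channel gene KCNJ2 (0.85), the integrin gene ITGA6 (0.79) and PCDH12 (0.76).

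Other regulators of the complex were given by a list of 8 genes. From T0 to T1, 3 of the 8 rose and 0 fell (median log2 fold change 0.45), beside 3.57% and 3.34% of all genes and a median of -0.02 over them: SIRT5 (1.04 ± 0.22, edgeR adjusted p = 0.00585), ACAT1 (0.71 ± 0.19, adjusted p = 0.0234, lost without T0 library m8, m10 or m13 and in a fit of T0 and T1 alone) and SIRT3 (0.46 ± 0.14, adjusted p = 0.0447, a call lost in 13 of 35 alternatives). From T1 to T2, 5 fell and 1 rose, with a median of -0.36, beside 15.1% of all genes falling, 12.6% rising and a median of -0.01. Those that fell included PDPR, the regulatory subunit of the phosphatase (-0.63 ± 0.17, adjusted p = 0.00779), PDP2, the second catalytic phosphatase (-0.42 ± 0.13, adjusted p = 0.0198), and PDK1, a further kinase (-0.31 ± 0.11, adjusted p = 0.0423, lost in 19 of 35 alternatives). SIRT5 (-0.73) and ACAT1 (-0.43, lost in 11 and reversed in 1 of 35 alternatives) also fell, and KAT2A rose (0.51 ± 0.17, adjusted p = 0.027). The PDP2 call was lost without T1 library m11 (adjusted p = 0.0544), and that of KAT2A without T1 library m4 or T2 library m14. With the fibre score as a covariate no rise into T1 passed, and SIRT5 had 0.28 (adjusted p = 0.634), ACAT1 0.05 (adjusted p = 0.934) and SIRT3 0.28 (adjusted p = 0.582). That fit called 1 of all genes tested from T0 to T1, against 798 without the score. Losing these T1 calls is therefore no result about the listed genes. In the same fit the T1 to T2 values were -0.09 for SIRT5 (adjusted p = 0.756), -0.17 for PDP2 (adjusted p = 0.508), -0.01 for PDK1 (adjusted p = 0.955) and 0.48 for KAT2A (adjusted p = 0.156), none of which passed. None of the 8 passed from T0 to T2. PDK4, the kinase induced by fasting and fat oxidation, spread over a much wider range than the other kinases, from 1.47 to 40.6 CPM in T0, 1.14 to 228 CPM in T1 and 3.32 to 812 CPM in T2, and missed the threshold in each comparison (edgeR adjusted p = 0.389, 0.325 and 0.0945 for T1 minus T0, T2 minus T1 and T2 minus T0). From T0 to T2 the PDK4 log2 fold change of 3.95 ± 1.61 passed in DESeq2 (3.89, adjusted p = 0.00826) and without T0 library m12 (5.88, edgeR adjusted p = 0.0359).

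Of 12 genes of pyruvate entry and cofactors, 2 rose and 1 fell from T0 to T1, 1 rose and 1 fell from T1 to T2, and 4 rose and 0 fell from T0 to T2, with medians of 0.14, 0.03 and 0.12. Over all genes 3.57% rose and 3.34% fell, then 12.6% and 15.1%, then 6.73% and 9.30%, with medians of -0.02, -0.01 and -0.03, so the counts from T1 to T2 are no higher than the background. Both subunits of the mitochondrial pyruvate carrier rose from T0 to T2, MPC1 by 0.60 ± 0.15 (SE, edgeR adjusted p = 0.0127) and MPC2 by 0.48 ± 0.14 (adjusted p = 0.0254, lost without T0 library m9 or m13). Of the lipoylation genes, LIPT1 rose by 0.56 ± 0.15 (adjusted p = 0.0135) and LIAS by 0.40 ± 0.12 (adjusted p = 0.0264, lost without T0 library m8, m10 or m13) from T0 to T2. LIPT1 was the gene that rose from T1 to T2 (0.55 ± 0.12, adjusted p = 0.00195). MPC2 had also risen into T1 (0.52 ± 0.15, adjusted p = 0.0349, lost without T1 library m1 or T0 library m9, m10 or m13 and, at 0.52, in a fit of T0 and T1 alone). SLC25A42, the mitochondrial coenzyme A carrier, had 1.12 ± 0.28 into T1 (adjusted p = 0.0186, lost without T0 library m10 or without m3 and m12 together) and -1.10 ± 0.23 into T2 (adjusted p = 0.00108). PC, which carboxylates pyruvate to oxaloacetate, had -0.86 ± 0.25 from T0 to T1 (adjusted p = 0.0378, lost in 12 of 35 alternatives). With the fibre score as a covariate the following calls ended: into T1, MPC2 had 0.10 (adjusted p = 0.847), SLC25A42 0.71 (adjusted p = 0.50) and PC -0.15 (adjusted p = 0.874), and SLC25A42 had -0.77 from T1 to T2 (adjusted p = 0.071). From T0 to T1 that fit called 1 of all genes tested, so the losses into T1 are shared by nearly all genes.

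Of the sister complexes, 9 of 12 listed genes had an identifier and were tested. From T0 to T1, 2 rose and 0 fell, from T1 to T2, 3 fell and 0 rose, and from T0 to T2, 2 rose and 1 fell, with medians of 0.44, -0.23 and 0.14. The shares of all genes that rose and fell were 3.57% and 3.34%, 12.6% and 15.1%, and 6.73% and 9.30%, with medians of -0.02, -0.01 and -0.03. The first component of the oxoglutarate dehydrogenase complex, OGDH, fell from T1 to T2 (-0.55 ± 0.13, edgeR adjusted p = 0.00239), as did its relative DHTKD1 (-0.95 ± 0.17, adjusted p = 0.00036) and PPM1K, the branched-chain complex phosphatase (-0.80 ± 0.21, adjusted p = 0.00623). DLST, the oxoglutarate core enzyme, rose into T1 (0.53 ± 0.13, adjusted p = 0.0186, lost without T0 library m10). From T0 to T2 DHTKD1 fell (-0.81 ± 0.20, adjusted p = 0.00997). GCSH rose in that comparison (0.73 ± 0.22, adjusted p = 0.026, lost without T0 library m9, m10 or m13). The branched-chain kinase BCKDK rose into T1 by 0.44 ± 0.12 (adjusted p = 0.0275) and stood 0.37 ± 0.12 above T0 in T2 (adjusted p = 0.0339), and both calls were lost without T0 library m10 or m13, the latter also without T2 library m17 and the former also in a fit of T0 and T1 alone. With the fibre score as a covariate DHTKD1 had -0.50 (adjusted p = 0.0828) and PPM1K -0.36 (adjusted p = 0.351) from T1 to T2, and into T1 DLST had 0.72 (adjusted p = 0.142) and BCKDK 0.28 (adjusted p = 0.515), none of which passed. The losses into T1 are shared by nearly all genes, as that fit called 1 of all genes tested from T0 to T1.

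Of 16 transcription factors known to act on these genes, 2 rose and 0 fell from T0 to T1, 4 fell and 0 rose from T1 to T2, and 5 fell and 0 rose from T0 to T2, with medians of 0.02, -0.31 and -0.40. Beside these, 3.57% of all genes rose and 3.34% fell from T0 to T1, 12.6% and 15.1% from T1 to T2, and 6.73% and 9.30% from T0 to T2, with medians of -0.02, -0.01 and -0.03. The estrogen-related receptors ESRRA (0.45 ± 0.12, edgeR adjusted p = 0.0233, lost without T0 library m9 or m10) and ESRRB (1.21 ± 0.25, adjusted p = 0.00528) rose into T1, and with the fibre score as a covariate neither passed (0.44, adjusted p = 0.321, and 0.79, adjusted p = 0.385). Since that fit called 1 of all genes tested from T0 to T1, these losses are shared by nearly all genes. From T1 to T2 ESRRB fell by 1.56 (SE 0.21, adjusted p = 1.54e-05), PPARA, a receptor that induces kinase genes of this family, fell by 1.69 (SE 0.22, adjusted p = 1.72e-05) and the coactivator PPARGC1B fell by 0.88 (SE 0.25, adjusted p = 0.0102). From T0 to T2 the glucocorticoid receptor NR3C1 fell by 1.03 (SE 0.23, adjusted p = 0.0064) and RXRA fell by 0.59 (SE 0.17, adjusted p = 0.0225, lost without T0 library m10 or m13). PPARA also fell in that comparison, by 0.90 (SE 0.25, adjusted p = 0.0208, lost without T0 library m9).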

How the data were processed

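The deposited tables hold expected counts per gene and transcript, which the authors estimated with RSEM (FastQC, STAR and DESeq2 are also named, without versions) per the submitters' processing notes, and which are whole numbers in the files. The sources used here give neither the genome build nor how the 6 technical repetitions of 50 cycles were pooled. The authors also deposited DESeq2 tables with log2 fold changes, their standard errors, Wald scores, p-values and a mean normalized count signal. Their letters were matched to time points by the fold changes of all shared genes (r = 0.959 to 0.985).

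Genes were kept by filterByExpr (minimum count 10, minimum total 15), TMM factors were computed, and edgeR 4.0.16 under R 4.3.3 fitted all 3 time points together, with its quasi-likelihood F test and robust priors. Log2 CPM used a prior count of 2. The standard error is the absolute log2 fold change over the square root of F. Ratios used exact two-sided permutation tests, and correlations up to 100000 resamples. Alternatives were median ratio factors, no filter, DESeq2 1.42.0, limma 3.58.1 voom with sample weights, sex, 1 surrogate variable from sva 3.50.0 or the fibre score as a covariate, only 2 time points, a fit that was not robust, no mitochondrially encoded genes, thinning to 12185608 counts, and leaving out libraries. The test was checked on simulated counts, with 100 genes changed at each size. It recovered 23% of 1.5-fold changes for T1 minus T0, 49% for T2 minus T1 and 27% for T2 minus T0. Of 2-fold changes it recovered 89%, 99% and 99%. A change of 1.5-fold or less that did not pass is therefore not shown to be absent.

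Named genes are the 8 members, up to 6 called members of each list by p, PDK1 and PDK4, and the 3 genes most correlated with each member. Members and lists were chosen with earlier results of these data known. Sequences were not used here.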

Additional observations from a re-analysis of the deposited data

Results flagged for a closer look

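PDK2 in T1 library m3 had 143.3 CPM, and the next T1 library had 100.1 CPM. This gap was 0.681 of the range of the 8 T1 libraries, above the critical value of 0.526 of Dixon's test at 95%. It was the only such value among 24 sets of libraries checked (8 genes in 3 time points), where chance alone gives about 1 in 20 sets.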

How the results depend on the processing

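No paired analysis was possible because the labels do not say which horse gave each library. The 3 genes that rose from T0 to T1 became 6 in limma voom with sample weights and 0 with the fibre score as a covariate, and 1 to 3 when 1 library was left out. In a fit of T0 and T1 alone the PDK2 call was lost (edgeR adjusted p = 0.0771). Over all genes the calls in this comparison went from 798 to 1476 in limma voom, 1 with the fibre score and 560 with T0 and T1 alone. In these fits the members' counts moved in the same direction as the counts over all genes. Leaving out 1 library gave 346 to 904 calls over all genes. The 2 genes that fell from T1 to T2 became 4 with 1 surrogate variable, in limma voom, in DESeq2 and without libraries m3 and m12 together, 1 with the fibre score as a covariate, and 2 to 3 when 1 library was left out, where all-gene calls went from 3188 to 3511, 4391, 3299, 3957 and 2466 in DESeq2, limma voom, the surrogate variable fit, the fit without m3 and m12 and the fibre score fit. The 1 gene that rose from T0 to T2 became 2 in DESeq2, in limma voom and without m3 and m12, 0 in a fit of T0 and T2 alone, and 0 to 2 when 1 library was left out, where all-gene calls went from 1851 to 2319, 2921, 2947 and 1545 in those 4 fits. From T1 to T2 PDP1 passed in 6 of the 12 fits other than leaving out 1 library, so fits not named here also gave a higher count. Leaving out 1 library gave 2665 to 3775 calls over all genes from T1 to T2 and 986 to 2414 from T0 to T2. The counts of 0 in the opposite directions stayed at 0 in all 35 alternatives. Signs turned only for values that had not passed, with 1 exception: the log2 fold change of ACAT1 from T1 to T2 was 0.13 with the fibre score as a covariate (adjusted p = 0.553). From T0 to T2 PDK2 had -0.0149 with 1 surrogate variable, and PDK3 had 0.0411 without m3 and m12 and -0.2412 to 0.0334 when 1 library was left out. From T1 to T2 DLAT had 8e-04 with 1 surrogate variable and -0.0781 to 0.0226 when 1 library was left out, and from T0 to T1 PDK1 had -0.13 with the fibre score. Leaving out 1 library gave log2 ratio differences from T0 to T1 of -0.08 to 0.0601 for DLD over DLAT, -0.11 to 0.0685 for PDHX over DLAT and -0.17 to 0.19 for PDK2 over PDP1, and from T0 to T2 of -0.1631 to 0.0154 for PDHX over DLAT. Ratios did not change calls with a prior count of 0.5 or 5. The cause of these changes was not tested. The 5 T0 libraries and the low counts of PDK3 limit the precision.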
